A study of Drosophila melanogaster with 2 samples.

Results

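The 9 genes described here encode heat shock proteins and their regulator in Drosophila melanogaster. They were chosen by symbol, not by a measured value in a list, out of 18164 annotated genes (13945 of them protein-coding) on the 6 chromosome arms. They are Hsp83, 5 small heat shock protein genes (Hsp67Bc, Hsp22, Hsp26, Hsp23 and Hsp27) of the cluster at cytological position 67B, the Hsp70 relatives Hsp68 and Hsc70-4, and the heat shock factor gene Hsf. Chromatin from whole embryos aged 0 to 16 h, male and female pooled, of a transgenic line that stably expresses Mes4 with GFP at its C terminus was sonicated (fragments of 200 to 800 bp) and immunoprecipitated through the tag with an anti-GFP antibody. The promoter that drives the fusion is not given in the labels. Both samples belong to this 1 group, as biological replicates 3 and 4. The labels name no heat treatment, an untagged line was not analysed here, and whole embryos mix all tissues and stages, so a peak cannot be assigned to a cell type. All of the data come from 1 condition, so values are compared between genes and between replicates, without p-values.

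Heat shock proteins are molecular chaperones, which bind unfolded proteins and keep them from aggregating. On heat stress, trimers of the factor encoded by Hsf bind heat shock elements, arrays of the short block GAA and its inverse TTC, in front of the inducible genes. Before stress, promoters such as those of Hsp26 and Hsp70 already hold GAGA factor and a paused RNA polymerase II, for which they are textbook examples. Mes4, listed by RefSeq as an older name of PolE4, encodes a protein with a histone fold, a domain through which such proteins pair and contact DNA.

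Peaks were read from 4 lists of the authors in the genome build dm6. The relaxed lists of replicate 3, replicate 4 and the pooled reads hold 30000 peaks each, including background by their own description, and the optimal list made with the irreproducible discovery rate (IDR) procedure holds the 3207 strongest pooled peaks. The signal of a peak is the authors' own value on a scale that is not given. It is used to rank peaks within a list, rank 1 being the strongest. In the pooled list it ran from 22.9 to 1678 with a median of 34.6, and the weakest optimal peak stood at 85.5. The sequencing depth behind these values is unknown. A gene is called bound where an optimal summit, the highest point of a peak, lay within 500 bp of one of its annotated transcription start sites (TSSs). Distances are negative upstream of a TSS.

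Of the 9 genes, 4 were bound: Hsp83, Hsp26, Hsp27 and Hsc70-4. By the same rule 2101 of the 13945 protein-coding genes were bound, 15.1%. The other 5 genes, Hsp22, Hsp23, Hsp67Bc, Hsp68 and Hsf, had no optimal summit that near. Widening the window to the gene body and 2 kb around each TSS added only Hsp68 and gave 5 of 9, against 23.3% of protein-coding genes. In the pooled relaxed list 8 of 9 had a peak at a TSS by the 500 bp rule, against 54.6% of protein-coding genes, and the same 8 had one in the body or within 2 kb, against 74.2%. Hsp23 was the exception in both. The same 4 genes were bound when the 3207 strongest peaks of replicate 3 alone were used, where 14.9% of protein-coding genes were bound, and when those of replicate 4 alone were used, where 14.7% were.

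The genes fell into a fixed order at the top and an unsettled one below it. The strongest start peak of Hsp83 ranked 117 in replicate 3 and 106 in replicate 4. That of Hsp26 ranked 312 and 490, that of Hsp27 1043 and 1177, and that of Hsc70-4 2124 and 1628. These 4 pairs of ranks do not overlap, so Hsp83, Hsp26, Hsp27 and Hsc70-4 kept this order in both replicates. Next came Hsp22 at 3463 and 13358, Hsp68 at 4210 and 8740 and Hsp67Bc at 6756 and 5374, whose ranks overlap and which do not differ beyond the spread of the replicates. Hsf had a start peak at rank 5327 in replicate 3 and none in replicate 4, and Hsp23 one at rank 22328 in replicate 3 and none in replicate 4. Over the 8 genes with a pooled start peak the median rank was 3141, beside 6812 over the 7608 protein-coding genes that have one. In replicate 3 it was 3463 over 9 genes, beside 6650 over all, and in replicate 4 it was 1628 over 7 genes, beside 7002.

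**Figure D1:**
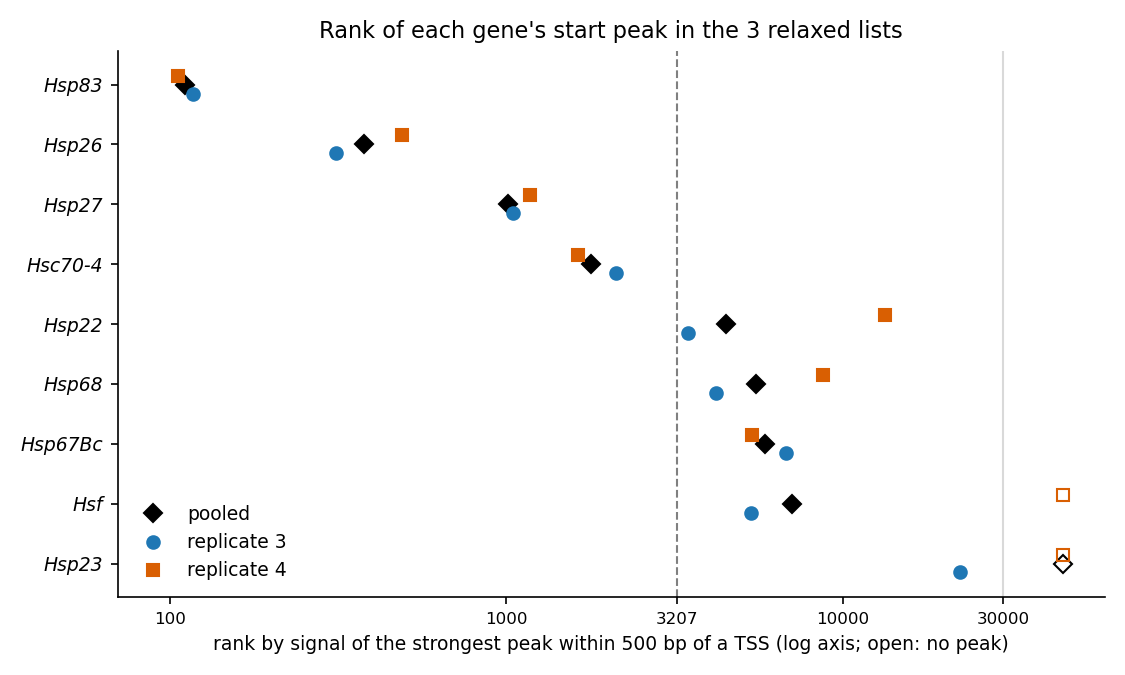
Rank by signal (log axis, left is stronger) of the strongest peak within 500 bp of a TSS for each gene, in the pooled list (diamonds), replicate 3 (circles) and replicate 4 (squares); open symbols stand for no peak, the dashed line marks rank 3207 and the grey line the end of each list at 30000. Hsp83, Hsp26, Hsp27 and Hsc70-4 lie left of the dashed line in all 3 lists, and the other 5 genes lie right of it.

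Hsp83 encodes the fly Hsp90, a chaperone of kinases and receptors that is abundant without stress. It lies on arm 3L (3192969 to 3197059, plus strand, FBgn0001233) and has 2 annotated TSSs, at 3192969 and 3193216. Its start peak (chr3L:3192989-3193252) was the strongest of the 9 genes, with a signal of 465 and rank 111 in the pooled list, 273 in replicate 3 and 194 in replicate 4. The summit lay 98 bp upstream of the second TSS, inside the 5' UTR of the transcript that begins at the first. The summits of the replicates were 2 bp apart, the closest of any peak of these genes. The nearest other gene, CG14965, starts 627 bp from the summit on the other strand. Downstream of the summit, 68 bp upstream of the second TSS, lies a pair of heat shock blocks, printed here because it is the element next to the strongest of these peaks (dm6, chr3L:3193137-3193166, plus strand, 5′ to 3′, from RefSeq's Release 6 genome, capitals mark the pair).
Hsp83: agaagcctctaGAAGTTTCtagagacttcc

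A second optimal peak of Hsp83 lay in its intron (chr3L:3194234-3194352), 1068 bp downstream of the nearest TSS, with signal 90.2 and rank 2963. It did not recur equally in the replicates. Replicate 3 had it at rank 1803 with a signal of 72.7, and replicate 4 at rank 19647 with a signal of 15.1. In replicate 4 alone a peak stood in the coding exon at rank 2821, with a signal of 39.4, and the pooled peak there ranked 9664. A 4th pooled peak of the gene, in the intron at rank 24287, had a match in neither replicate. Of the peaks in the Hsp83 body only the one at its start was strong in both replicates.

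The small heat shock protein genes at 67B encode chaperones with an alpha-crystallin domain that hold unfolded proteins in solution. The 5 described here span 14.2 kb of arm 3L (9371511 to 9385694). This stretch held 7 pooled summits, 8 of replicate 3 and 7 of replicate 4, and 2 of the pooled ones were optimal, those of Hsp26 and Hsp27, 6355 bp apart. The genes between and beside these 2 peaks were not bound.

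**Figure D2:**
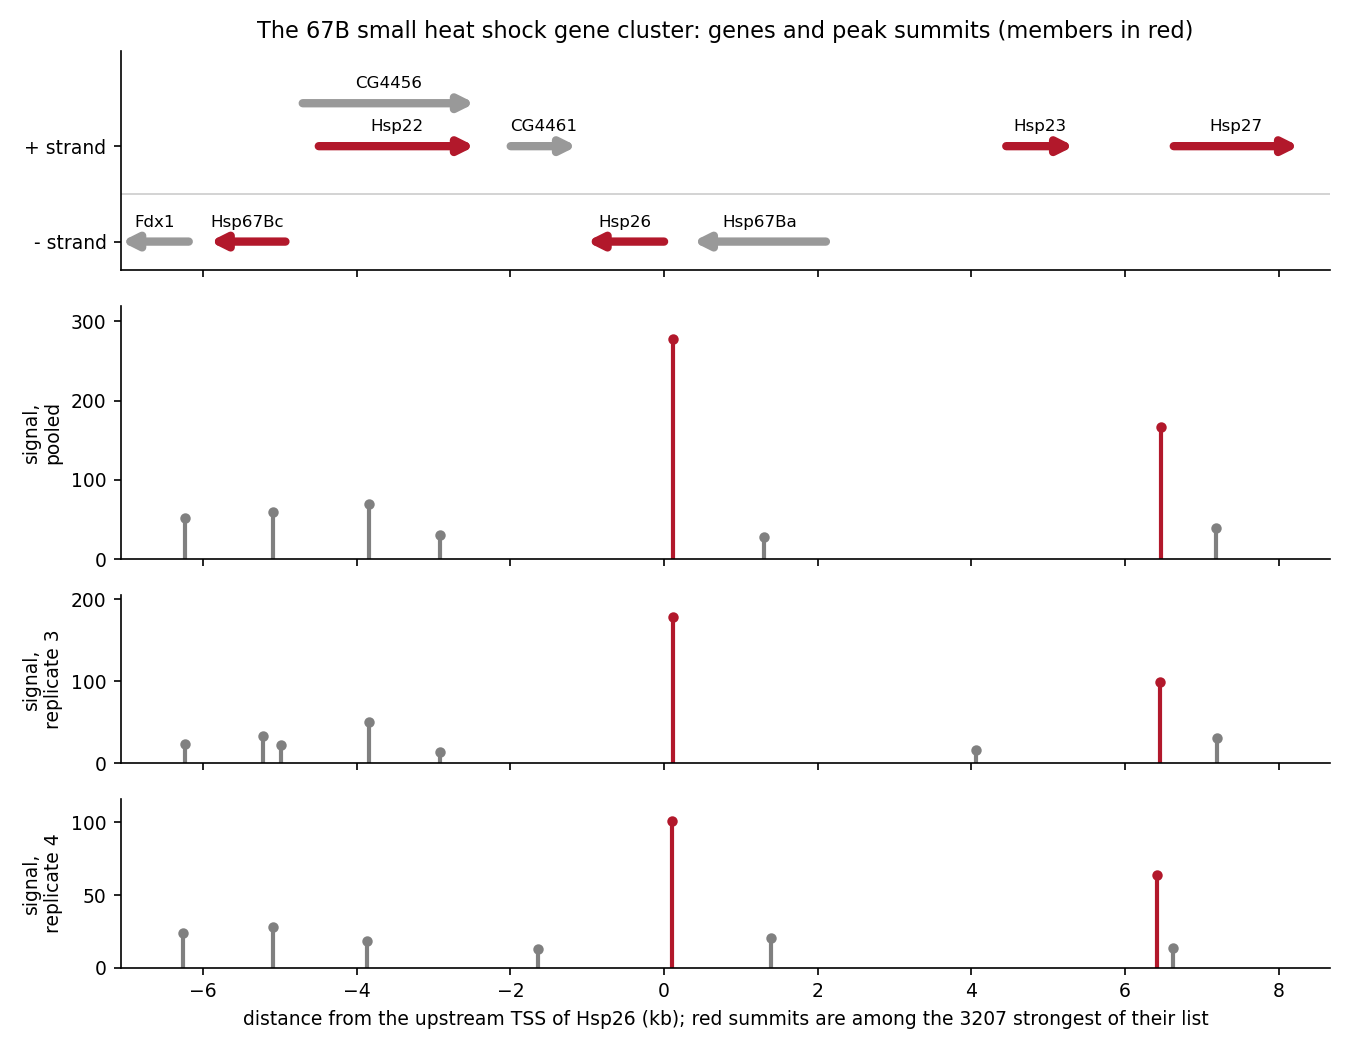
Protein-coding genes (arrows in the direction of transcription, those described here in red, others in grey) and peak summits of the 67B cluster, by distance in kb from the upstream TSS of Hsp26; the height of each line is the authors' signal in the pooled list, replicate 3 and replicate 4, each on its own scale from 0. The summits before Hsp26 (pooled signal 278) and before Hsp27 (167) are among the 3207 strongest of each list (red), and no other pooled summit shown exceeds a signal of 69.7.

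Hsp26 (9376418 to 9377427, minus strand, FBgn0001225) carried the stronger peak of the cluster, at chr3L:9377480-9377583. Its signal was 278 in the pooled list at rank 378, 179 in replicate 3 and 101 in replicate 4. The summit lay 111 bp upstream of the more upstream of its 2 TSSs, and the summits of the replicates were 6 bp apart. The peak was 104 bp wide, the narrowest width in the pooled list, and lay in intergenic sequence. The antisense RNA gene asRNA:CR43481 starts 622 bp from the summit. The only other pooled peak near Hsp26, at rank 22376 and 1296 bp upstream, lay in the coding exon of Hsp67Ba and was matched in replicate 4 only, at rank 10142.

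Hsp27 (9384063 to 9385694, plus strand, FBgn0001226) had a peak of 144 bp at chr3L:9383820-9383963, also intergenic. Its signal was 167 in the pooled list at rank 1014, 98.8 in replicate 3 and 63.6 in replicate 4. The summit lay 170 bp upstream of the TSS, with 40 bp between the summits of the replicates. No other gene starts within 1 kb of it. A weaker pooled peak in the coding exon, at rank 11569, was matched in replicate 3, at rank 7913, and not in replicate 4. Replicate 4 had a weak further peak 14 bp upstream of the TSS, at rank 24549.

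The sequences at these 2 peaks are shown because they are the only optimal peaks of the cluster. That of Hsp26 runs from the outer edge of the peak to the base before the TSS (chr3L:9377428-9377583, minus strand), that of Hsp27 covers the whole peak (chr3L:9383820-9383963, plus strand). Both are printed 5′ to 3′ on the strand of the gene from RefSeq's Release 6 genome, and capitals mark pairs of heat shock blocks and GAGAG, the core of the GAGA element, on either strand.
Hsp26: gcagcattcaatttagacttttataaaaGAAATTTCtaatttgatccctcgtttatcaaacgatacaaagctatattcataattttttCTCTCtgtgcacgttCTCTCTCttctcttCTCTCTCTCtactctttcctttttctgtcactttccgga
Hsp27: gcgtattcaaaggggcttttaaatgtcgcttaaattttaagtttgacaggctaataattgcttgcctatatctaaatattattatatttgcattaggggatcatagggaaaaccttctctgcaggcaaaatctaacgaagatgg
In Hsp26 the heat shock pair begins 17 bp before the summit, counted along the gene, and the 6 GAGAG matches, some of them overlapping, begin 43 to 76 bp after it. Only 1 of the 6 lies wholly inside the narrow pooled peak, and the others reach from its edge towards the TSS. In each replicate list the Hsp26 peak was 410 bp wide and held all 6. The window of 100 bp to each side of the Hsp26 summit is 1 of 36 among the 3207 optimal summits, 1.12%, with 6 or more GAGAG matches. The cut of 6 is the count at Hsp26 itself, so this share only describes that window and tests nothing. Hsp22, which was not bound, held 5 GAGAG matches and 2 heat shock pairs in the promoter window of the TSS nearest its peak, beside 6 and 3 in that of Hsp26. The Hsp27 peak holds neither motif in these exact letters.

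Hsp22 (9372931 to 9374964, plus strand, FBgn0001223), whose product works in mitochondria, had its strongest peak at rank 4500 in the pooled list with a signal of 69.7. The summit lay 418 bp upstream of the nearer of its 2 TSSs, in the 5' UTR of the longer transcript. Replicate 3 gave it a signal of 50.4 at rank 3463, just outside its 3207 strongest peaks, and replicate 4 a signal of 18.2 at rank 13358. The gene overlaps CG4456, an older name of which is Hsp67Bb, on the same strand, and a peak there cannot be given to either gene alone. A weaker peak 513 bp downstream of a TSS ranked 19333 in the pooled list and 29990 in replicate 3, and had no match in replicate 4.

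Hsp67Bc (9371511 to 9372497, minus strand, FBgn0001229) is transcribed away from CG4456 and Hsp22. Its start peak had a pooled signal of 59.1 at rank 5886 and a summit 159 bp downstream of the TSS, in the 5' UTR. That summit also lay 384 bp upstream of the nearest TSS of CG4456, so the peak counts for both genes by the 500 bp rule. The signal was 33.8 in replicate 3 and 27.8 in replicate 4, with 122 bp between the summits. Replicate 3 had a second, weaker start peak 64 bp downstream of the TSS, at rank 13502. A further pooled peak 1307 bp downstream of this TSS, at rank 7328, had its summit 48 bp from the start of Fdx1, the next gene.

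Hsp23 (9381882 to 9382765, plus strand, FBgn0001224), which is expressed in development as well as under stress, had no pooled summit in its body or within 2 kb of its TSS. It sits in the widest stretch of the cluster without a pooled summit, 5170 bp from 9378723 to 9383893. The nearest pooled summit, 2011 bp downstream of its TSS, was that of Hsp27. In replicate 4 the Hsp27 summit lay at 1965 bp and so fell inside the 2 kb window of Hsp23. Replicate 3 had a weak peak of its own 398 bp upstream of the Hsp23 TSS, with a signal of 16.8 against a minimum of 13.8 in that list.

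The 2 Hsp70 relatives differed in where their optimal peaks lay. Hsc70-4 encodes the constitutive cytoplasmic Hsp70 that uncoats clathrin and folds new proteins, and Hsp68 encodes a stress-inducible Hsp70. Both are on arm 3R.

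Hsc70-4 (15242687 to 15246614, plus strand, FBgn0266599) had 2 overlapping optimal peaks at its first TSS. The stronger (chr3R:15242348-15242763) had a signal of 120 in the pooled list at rank 1782, 66.9 in replicate 3 and 53.2 in replicate 4. Its summit lay 131 bp upstream of the TSS. The other summit lay 92 bp downstream, in the 5' UTR, with a pooled signal of 91.0 at rank 2921. It ranked 2228 in replicate 3 and 6236 in replicate 4, outside the 3207 strongest there. The gene tefu, the fly ATM kinase, starts on the other strand 320 bp from the stronger summit. This peak thus lies between 2 divergent genes and counts for both by the 500 bp rule, with Hsc70-4 the nearer. Peaks further inside Hsc70-4 ranked 8261, in replicate 3 only, and 17853, in replicate 4 only.

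Hsp68 (24055080 to 24057310, minus strand, FBgn0001230) had a peak at its own start with a pooled signal of 61.5 at rank 5513 and a summit 41 bp upstream of the TSS. It had signals of 44.7 in replicate 3 and 22.0 in replicate 4, with summits 99 bp apart. The optimal peak in its 2 kb window (chr3R:24058018-24058433) lay 916 bp upstream, with a signal of 93.2 at rank 2804, 54.4 in replicate 3 and 42.0 in replicate 4. Its summit was 61 bp from the start of SMC1, a cohesin subunit gene on the other strand, and thus nearer to SMC1 than to Hsp68.

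The 200 bases before the TSS of Hsc70-4 (chr3R:15242487-15242686, plus strand), Hsp68 (chr3R:24057311-24057510, minus strand) and Hsp23 (chr3L:9381682-9381881, plus strand) follow, a bound gene beside 2 that were not. They are written 5′ to 3′ on the strand of each gene, with capitals on the pairs of heat shock blocks.
Hsc70-4: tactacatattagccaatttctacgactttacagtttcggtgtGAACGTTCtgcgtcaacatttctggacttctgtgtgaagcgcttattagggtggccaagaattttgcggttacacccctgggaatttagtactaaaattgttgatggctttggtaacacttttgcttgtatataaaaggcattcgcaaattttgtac
Hsp68: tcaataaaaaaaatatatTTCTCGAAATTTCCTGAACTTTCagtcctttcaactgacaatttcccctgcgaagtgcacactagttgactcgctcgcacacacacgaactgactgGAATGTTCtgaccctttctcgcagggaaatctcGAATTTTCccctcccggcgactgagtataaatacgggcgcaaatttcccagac
Hsp23: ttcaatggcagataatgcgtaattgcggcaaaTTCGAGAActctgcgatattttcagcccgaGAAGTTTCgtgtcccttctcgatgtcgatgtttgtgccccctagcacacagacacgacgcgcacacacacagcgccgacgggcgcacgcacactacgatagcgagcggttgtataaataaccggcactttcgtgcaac
Hsc70-4 has 1 pair, 157 bp before the TSS. Hsp68 has 6 overlapping or separate pairs, of which the 4 at 182 to 167 bp before the TSS form an unbroken array, and Hsp23 has 2, at 168 and 138 bp.

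Hsf (2R, 18130303 to 18134634, minus strand, FBgn0001222), which encodes the activator of the inducible genes, had a single pooled peak, at its start. Its signal was 53.0 at rank 7066 and its summit lay 82 bp downstream of the TSS, in the 5' UTR. Replicate 3 had the peak with a signal of 39.0. Replicate 3 also had a weaker peak upstream of the gene, at rank 16483. Its summit lay 14 bp from the start of Pcl and 778 bp from that of Hsf. A further one stood in the Hsf coding exon, at rank 24489. The nearest summit of replicate 4 was 2316 bp from the Hsf TSS, at rank 20419. The nearest optimal summit was 7269 bp upstream of the Hsf TSS.

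**Figure D3:**
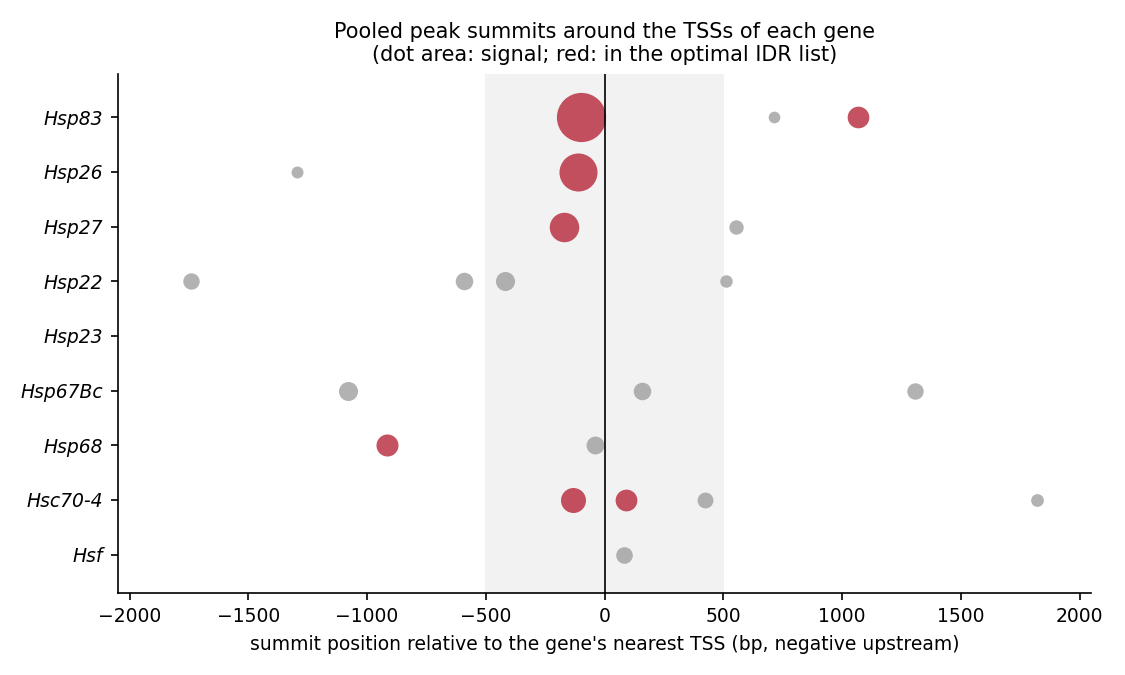
Pooled summits within 2000 bp of the nearest TSS of each gene (x axis, bp, negative upstream), with dot area in proportion to the authors' signal, optimal IDR peaks in red, other pooled peaks in grey and the 500 bp window shaded. The summits of Hsp83, Hsp26, Hsp27 and the stronger one of Hsc70-4 lie 98 to 170 bp upstream of a TSS, the optimal summit of Hsp68 and the intron summit of Hsp83 lie outside the window, and Hsp23 has none; the Hsp83 summit at 2966 bp is beyond the axis.

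Set side by side, 2 of the 5 genes described at 67B were bound, Hsp83 was bound, and of the Hsp70 relatives Hsc70-4 was and Hsp68 was not. Hsp67Ba, CG4456 and CG4461, which lie in the same 14.2 kb, were not bound. Over all protein-coding genes the share bound was 15.1%. The Hsp26 peak, the strongest of the cluster, had a lower signal than that of Hsp83 in the pooled list (278 against 465), in replicate 3 (179 against 273) and in replicate 4 (101 against 194). The stronger peak of Hsc70-4 (120) ranked below that of Hsp27 (167) in all 3 lists. In each of the 4 bound genes the strongest summit lay upstream of the nearest TSS, by 98 bp for Hsp83, 111 bp for Hsp26, 131 bp for Hsc70-4 and 170 bp for Hsp27. Of the 19 distinct pooled peaks of the 9 genes, 11 had a summit within 200 bp in both replicates, 4 in replicate 3 only, 3 in replicate 4 only and 1 in neither.

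Heat shock blocks were found before bound and unbound genes alike. A pair was read as GAANNTTC or TTCNNGAA, where N is any base. In the 300 bp promoter window, from 250 bp before the most upstream TSS, 5 of the 9 genes held a pair, against 15.9% of protein-coding promoters. These were Hsp26 and Hsc70-4, which were bound, and Hsp23, Hsp67Bc and Hsp68, which were not. Counting every annotated TSS added Hsp83 and Hsp22, 7 of 9 against 19.9% of protein-coding genes by that rule. Hsp27 and Hsf had none in these windows and in these exact letters. Three-block arrays, in which 3 alternating blocks are each separated by 2 bases, stood in the Hsp68 window and in 0.430% of promoters, and Hsc70-4 had 1 such array before internal TSSs. Of the 7 optimal summits of these genes, 3 had a pair within 100 bp, those of the start peaks of Hsp83 and Hsp26 and of the stronger start peak of Hsc70-4, beside 352 of all 3207 summits, 11.0%. The Hsp27 start peak, the other Hsc70-4 start peak, the Hsp83 intron peak and the optimal peak upstream of Hsp68 had none. The DRE (TATCGATA), the site of the housekeeping factor Dref, was found before the first TSS of Hsp83, 182 bp upstream of it, in none of the other windows, and in 9.36% of promoters; it lay outside the 100 bp around the Hsp83 summit. The letters TATAAA, the core of the TATA box, were present somewhere in the window of 8 of 9 genes, all but Hsf, against 45.8% of promoters. They began 35 to 20 bp before the most upstream TSS, where a TATA box usually lies, in 5 of 9 (Hsp27, Hsp23, Hsp67Bc, Hsp68 and Hsc70-4), against 7.90% of promoters. Before another annotated TSS of the gene they also began in that range in Hsp83 (30 bp), Hsp26 (28 bp) and Hsp22 (28 bp). The share of promoters with TATAAA in that range was not counted over every TSS. CCAAT, the box of NF-Y, was present in 6 of 9, against 46.7%. GAGAG was present in 3 of 9, Hsp26, Hsp22 and Hsp23, against 29.7%. With every annotated TSS counted, Hsc70-4 was added, 4 of 9 against 36.3% of protein-coding genes by that rule. A match is a run of letters and does not show that a factor was bound.

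**Figure D4:**
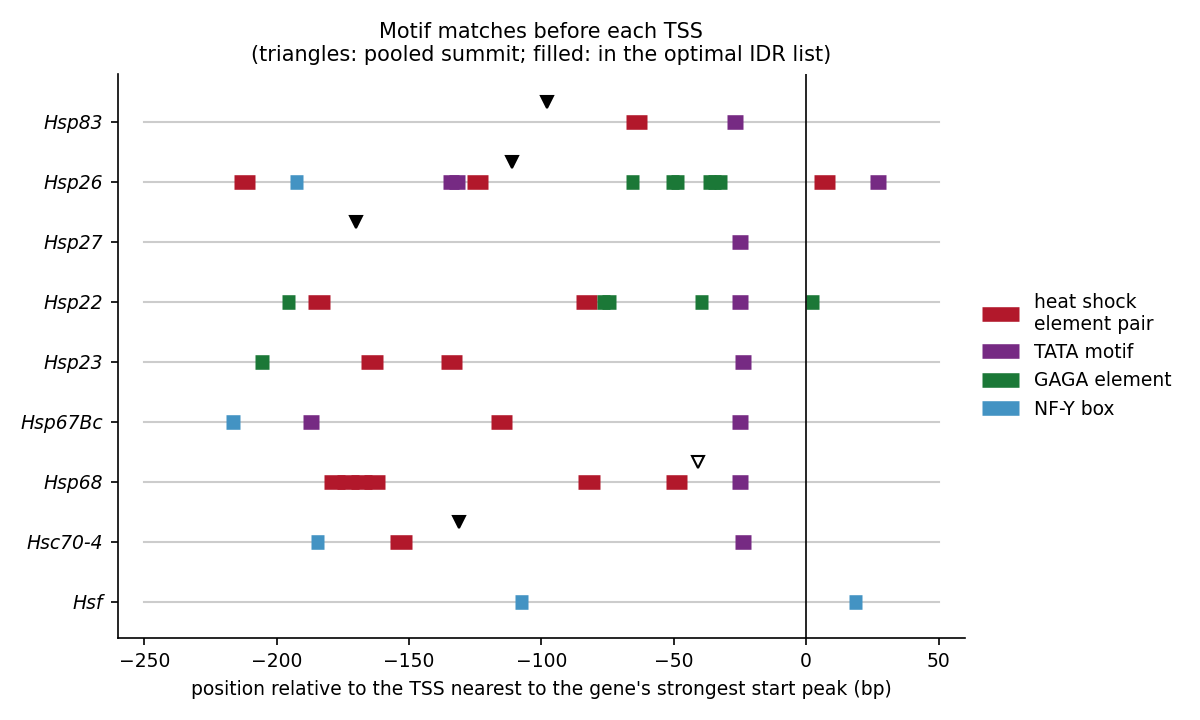
Matches to 4 motifs (coloured blocks; no DRE falls in these windows) from 250 bp before to 50 bp after the TSS nearest to the strongest pooled start peak of each gene, or its only TSS for Hsp23; triangles mark a pooled summit that falls in the window, filled where it is in the optimal IDR list. Heat shock element pairs stand in windows with an optimal summit (Hsp83, Hsp26, Hsc70-4) and without one (Hsp22, Hsp23, Hsp67Bc, Hsp68), and GAGA elements crowd between the summit and the TSS of Hsp26.

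The wider chaperone system was bound at about the background share. A list of 44 names gave 36 further genes, 35 of them protein-coding, and 5 of these 35 were bound, 14.3% beside 15.1% of all protein-coding genes. They were mrj, a J-domain co-chaperone (rank 185), Hsc70-5, the mitochondrial Hsp70 (rank 990), stv, the BAG-domain partner of Hsp70 (rank 1992), DnaJ-1, an Hsp40 (rank 2519), and Trap1, the mitochondrial Hsp90 (rank 2554). The Trap1 summit lay nearer to the start of Bap170, at 103 bp, than to that of Trap1, at 147 bp. In the gene body or within 2 kb, 7 of 35 had an optimal summit, against 23.3% of all protein-coding genes. These added Hsc70-3, the Hsp70 of the endoplasmic reticulum (rank 3007), and Hsp67Ba, through the Hsp26 peak 1996 bp from its TSS. The noncoding RNA gene lncRNA:Hsromega, which marks the heat shock puff at 93D, had an optimal peak inside its transcribed region at rank 1188, 1139 bp downstream of the nearest TSS. It ranked 1096 in replicate 3 and 1272 in replicate 4, and none of its 500 bp windows held an optimal summit. The 6 Hsp70 genes of the list, Hsp70Aa, Hsp70Ab, Hsp70Ba, Hsp70Bb, Hsp70Bbb and Hsp70Bc, had no pooled peak in the body or within 2 kb. These genes are near-identical copies, so at these loci absent binding and reads that could not be placed cannot be told apart.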

How the data were processed

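Both samples are ChIP-seq of Mes4-GFP embryos. Per the deposited readme files, the authors made relaxed peak lists from each replicate's alignments with a shared control, a list from the pooled alignments, and an optimal IDR list from these. For the aligner, the peak caller and the threshold of the IDR step: not given in the sources used here. The shared control was not analysed here. The 4 dm6 lists were used; the 4 dm3 lists were not. Column 7 is the authors' signal value, column 9 reads as their −log10 of a q-value, and column 10, another deposited number, is the summit offset. The q-value stands at its maximum in all optimal peaks, so peaks were ranked by signal. Without read counts, depth and counting intervals are unknown.

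TSSs came from Ensembl release 115 and sequence from RefSeq's Release 6 genome, whose arm lengths exceed every peak end (transposable elements left out). Coordinates are 1-based. A gene counts once however many TSSs it has, and a peak counts for every gene in reach. Genes starting within 1000 bp of a member's bound summit are also named. Replicate peaks matched with summits within 200 bp. Motifs were searched on both strands in exact letters, and each match counts, overlapping ones too. Members, lists and rules were chosen with earlier results of these data known. Named chaperones are those with an optimal summit in the body or within 2 kb of a TSS; the Hsp70 copies were added after their values were seen. Of the 44 names, 3 matched no gene and 3 matched several and were left out; some names led to the same gene. The motif shares over every TSS, the position window for TATAAA and the widths of peaks of like rank were added after seeing the data. The calls were tested on simulated summits. Python 3.11.15, pandas 2.3.3 and numpy 2.4.6 were used.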

Additional observations from a re-analysis of the deposited data

How the results depend on the processing

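The count of bound genes kept within 1.5 times of 4 under all 8 alternatives. It was 4 at a TSS distance of 250 bp (12.4% of protein-coding genes), with peak overlap in place of the summit (16.2%) and with each peak given to the nearest gene only (10.9%), and 4 from either replicate alone (range 4 to 4). It was 5, with Hsp68 added, at 1000 bp (17.5%) and 2000 bp (21.5%), and 3, without Hsc70-4, with the stronger 1603 optimal peaks, where 7.95% of protein-coding genes were bound. The count in the body or within 2 kb fell from 5 to 3 with the stronger 1603 peaks (13.3% of protein-coding genes), and rose to 6, with Hsp23 through the Hsp27 peak, with overlap and from replicate 4 alone (range 5 to 6 when 1 replicate is left out). For the chaperone list, 5 of 35 (beside 15.1% of protein-coding genes) became 3 at 250 bp (beside 12.4%) and 2 with the stronger 1603 peaks (beside 7.95%), and lay between 4 and 5 when 1 replicate was left out. Gp93 entered, and DnaJ-1 and Trap1 left, with replicate 4 alone. The ranks of the strongest peaks in the body or within 2 kb of Hsp83, Hsp26, Hsp27, Hsp68 and Hsc70-4 stayed within 1.5 times of the pooled rank in either replicate, and their matches in the replicates were the same with summits within 100 or 500 bp. Of weaker peaks, that of Hsp67Bc moved from rank 6756 to 13502 in replicate 3 at 100 bp, and the Hsp83 intron peak at rank 24287 gained matches at 500 bp. At 500 bp the second Hsc70-4 start peak, at pooled rank 2921, was matched to the peaks of the first, so that its rank went from 2228 to 2124 in replicate 3 and from 6236 to 1628 in replicate 4. No paired analysis was possible because there is 1 group. The dm3 lists were not analysed here, since no dm3 annotation was used.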

Other observations

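The Hsp27 start peak and the Hsp83 intron peak were narrower than most peaks of like rank, a pattern noticed after the values were seen. In the pooled list 416 bp is the most common width. Of the 1000 strongest peaks 532 (53.2%) were narrower, but of the 29000 others only 27 (0.0931%). The Hsp27 peak, at rank 1014 and 144 bp, and the intron peak of Hsp83, at rank 2963 and 119 bp, are 2 of these 27. Among the 100 peaks to each side in rank, 8 of 200 (4.00%) were narrower than 416 bp around the Hsp27 peak and 0 of 200 around the Hsp83 intron peak. Hsp83 also held the 264 bp start peak, and of the 28001 peaks from rank 2000 on only 11 were narrower than 416 bp. In the replicate lists the matching Hsp27 and Hsp83 intron peaks had the common width of 410 bp. The cause of the narrow widths was not tested.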
